A study of Mus musculus with 15 samples.

Results

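The nuclear-encoded subunits of respiratory complex I were followed in A20 cells, a lymphoma line of B cells that arose in a BALB/c mouse. The members are the protein-coding genes with a mouse symbol of *Ndufa*, *Ndufb*, *Ndufc*, *Ndufs* or *Ndufv* and a number, together with *Ndufab1*, and without the *Ndufaf* assembly factors and the pseudogenes. There were 38 such genes among the 41388 genes counted, and all 38 passed the filter on low counts that left 13904 genes for testing. RNA sequencing covered the parental line, which is wild type for *Foxp1*, and 4 CRISPR clones with a mutation in *Foxp1*, in exon 6 for E6.1 and E6.2 and in exon 7 for E7.1 and E7.2. Each clone had been grown from a single GFP-sorted cell. Each line gave 3 libraries from separate passages, 15 in all, so a p value here measures the spread between passages of 1 clone and not between clones.

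Complex I, NADH:ubiquinone oxidoreductase, is the entry enzyme of the respiratory chain. It takes electrons from NADH, passes them along a chain of iron-sulfur clusters in its peripheral arm to ubiquinone, and uses the energy to pump protons through its membrane arm. The core subunits of the peripheral arm carry the cofactors and are encoded in the nucleus, the core subunits of the membrane arm are encoded by the mitochondrial genome, and the accessory subunits surround both arms and are needed for assembly and stability. By their place in the enzyme, the members comprised 7 core subunits, 9 accessory subunits of the peripheral arm, 9 of the proximal and 11 of the distal membrane arm, and 2 genes kept by the symbol rule alone. These are *Ndufa4*, whose protein is now assigned to complex IV, and its paralog *Ndufa4l2*.

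Total counts ranged from 26328054 to 39181530 per library, at which 3 counts correspond to 0.0751 to 0.118 CPM, a floor that covers counting error only. The targeted gene *Foxp1* lay between 102 and 166 CPM in the parental libraries, between 99.5 and 109 in both E6 clones, between 41.7 and 64.3 in E7.1 and between 37.1 and 52.3 in E7.2, and a count over the whole gene does not show an edit within an exon. All 7 B cell markers were detected in every line, with a summed level of 923 to 1517 CPM led by *Ms4a1* (CD20). The 9 markers of T cells, myeloid cells and other types summed to between 0.421 and 7.80 CPM, mostly *Adgre1*. Replicate 3 of E6.2 and replicate 3 of E7.2 stood apart from the other libraries (normalisation factors of 0.906 and 0.826), and in replicate 1 of E6.2 a single feature, *Gm42418*, took 10.3% of all counts. In bulk RNA, fewer cells that express a gene and less RNA per cell cannot be told apart.

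In parental cells the subunit genes were of middle to high abundance, the median member standing at the 64.8th percentile of all tested genes by CPM. Per length, levels without *Ndufa4l2* ran over a 132.5-fold range, from 366 ± 81.4 RPKM (SD, n = 3) for *Ndufa4* to 2.76 ± 0.524 RPKM for *Ndufb7*, with a median over all 38 of 39.0 RPKM. Below *Ndufa4* stood *Ndufa6* at 179 ± 31.6 RPKM, a small peripheral-arm subunit that binds an acyl carrier protein, and *Ndufc2* at 158 ± 10.9 RPKM, and *Ndufa6* and *Ndufc2* did not differ beyond their spread. At the low end, *Ndufb2* (3.68 ± 0.967 RPKM) and *Ndufb7* have long exon unions in the authors' annotation, of 5628 and 4522 bases, which lower a value per length. *Ndufa4l2*, known as a gene induced by hypoxia, was near the floor at 0.377 ± 0.234 RPKM, with 2 to 33 counts per library. Exons of 10 members overlap another gene, most of all *Ndufb6* (39.0% of its length, with *Smim27*) and *Ndufa13* (30.2%, with *Tssk6*), and read pairs there were not counted for either gene. The members were short genes, with a median exon length of 1282.5 bases against 3210.5 over all tested genes, and had a median GC content of 51.4% against 49.3%.

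The regions around the transcription starts shared features with each other that the symbol rule did not use. Windows of 300 bases, 250 before and 50 after the start, were taken from RefSeq (GRCm38.p6) for 33 of the 38 members. The median observed over expected CpG ratio was 0.782 for the members' windows and 0.384 for all windows, with GC contents of 59% and 52.7%. The letters AAGATGGC, the core of the binding site of the transcription factor YY1, were found in the windows of 7 of the 33 members (21.2%), against 3.19% of 27025 genes with a window. In all 7 the letters lay on the sense strand and began 23 to 39 bases into the transcript. These letters contain an ATG, and whether it is the start codon of these genes was not tested. The strand and the position may thus belong to the start of translation as well as to a YY1 site. The stretches are shown because they share both the letters and the position, and the capitals mark the YY1 letters.
*Ndufa3*, chr7:3617384-3617413, plus strand: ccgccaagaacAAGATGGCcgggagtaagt
*Ndufa9*, chr6:126849097-126849126, minus strand: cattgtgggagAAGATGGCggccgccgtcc
*Ndufb8*, chr19:44555393-44555422, minus strand: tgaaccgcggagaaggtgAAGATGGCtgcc
*Ndufc1*, chr3:51408915-51408944, minus strand: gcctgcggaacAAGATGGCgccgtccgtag
*Ndufs4*, chr13:114388045-114388074, minus strand: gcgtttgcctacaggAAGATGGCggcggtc
*Ndufs6*, chr13:73328433-73328462, minus strand: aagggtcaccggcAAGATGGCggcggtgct
*Ndufs7*, chr10:80249462-80249491, plus strand: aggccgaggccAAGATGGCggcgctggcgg

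NRF-1 is a regulator of many respiratory chain genes. The letters GCGCATGC, part of its binding site, were found in the windows of 3 members (9.09%, against 3.05% of all genes). These stretches are shown with the matched letters in capitals, and in *Ndufa6* and *Ndufa8* the match is to the opposite strand. In *Ndufa11* the letters match on both strands, in overlapping positions.
*Ndufa11*, chr17:56717691-56717720, plus strand: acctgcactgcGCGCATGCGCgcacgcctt
*Ndufa6*, chr15:82354356-82354385, minus strand: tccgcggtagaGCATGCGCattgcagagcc
*Ndufa8*, chr2:36049328-36049357, minus strand: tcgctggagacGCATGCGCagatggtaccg

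The other motifs were searched on both strands as well. The ETS letters CCGGAAG stood in 4 windows (12.1%, against 9.93% of all genes), the GC box GGGCGGG in 12 (36.4%, against 27.9%) and the CCAAT letters CCAATC in 6 (18.2%, against 18.2%). The forkhead letters TGTTTAC, of the kind that FOXP1 binds, were in 0 of the 33 windows (4.05% of all genes), and the shorter GTAAAC, which overlaps that motif on the opposite strand, was in 5 (15.2%, against 8.92%), those of *Ndufa11*, *Ndufb4*, *Ndufb5*, *Ndufc1* and *Ndufv1*. A match is a description of the letters in a window and not of binding.

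The comparison of each clone with the parental line addressed which subunit genes differed between them. No library came from a clone without a *Foxp1* mutation. In all 4 comparisons, the mutation therefore cannot be told apart from transfection, sorting and growth from a single cell. In E7.1 most subunit genes stood above the parental line. The fitted log2 fold change was above 0 for 32 of 38 members (84.2%, against 47.8% of all genes), with a median of 0.29 against -0.02 over all genes, and in 22 members all E7.1 libraries lay above all parental libraries (57.9%, against 16.4%). No member passed an adjusted p of 0.05 in edgeR's quasi-likelihood test, in either direction (0 of 38, against 0.396% of all genes called higher and 0.82% lower), and 15 were higher at an unadjusted p under 0.05 (39.5%, against 9.94%), none lower (10% of all genes). DESeq2's Wald test called 7 members higher, *Ndufa1*, *Ndufa3*, *Ndufa12*, *Ndufb3*, *Ndufb8*, *Ndufs5* and *Ndufv3*, and 0 lower, with 4.46% of all genes called higher. The count of calls in edgeR depended on single libraries. It was 7 without replicate 1 of the parental line (3.7% of all genes called higher), 5 without replicate 3 of E6.2 (3.12%), 2 without replicate 3 of E7.2 (2.32%) and 11 without both of the latter (8.46%), so the calls over all genes rose in these fits as well.

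The largest positive log2 fold changes in E7.1 belonged to accessory subunits. *Ndufv3*, at the NADH-oxidising tip, was at 0.72 (SE 0.188, adjusted p = 0.0676 in edgeR's quasi-likelihood test), *Ndufa3* of the proximal arm at 0.69 (SE 0.204, adjusted p = 0.0884), *Ndufb3* of the distal arm at 0.62 (SE 0.183, adjusted p = 0.0893) and *Ndufa1*, a small membrane-anchored subunit, at 0.57 (SE 0.154, adjusted p = 0.0731). *Ndufa3* (chr7:3617373-3620163) stood at 35.1, 22.8 and 27.5 CPM in the parental libraries, at 34.2, 35.0 and 32.7 in E6.1, at 35.1, 25.4 and 47.8 in E6.2, at 45.2, 53.1 and 39.7 in E7.1 and at 46.1, 45.5 and 48.2 in E7.2. All 6 libraries of the E7 clones lay above the parental ones. The shift in E7.1 ran through each arm of the enzyme, with median log2 fold changes of 0.27 for the core subunits, 0.33 for the peripheral accessory subunits, 0.38 for those of the proximal and 0.26 for those of the distal membrane arm. The 6 members below 0 were *Ndufa4l2* (-1.20), *Ndufa6* (-0.28), *Ndufc2* (-0.21), *Ndufb5* (-0.14), *Ndufs4* (-0.09) and *Ndufab1* (-0.05). Of the 7 members with the YY1 letters, 4 were at an unadjusted p under 0.05 in E7.1 with a median of 0.33, and of the 26 other members with a window 11 were, with a median of 0.35.

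**Figure D1:**
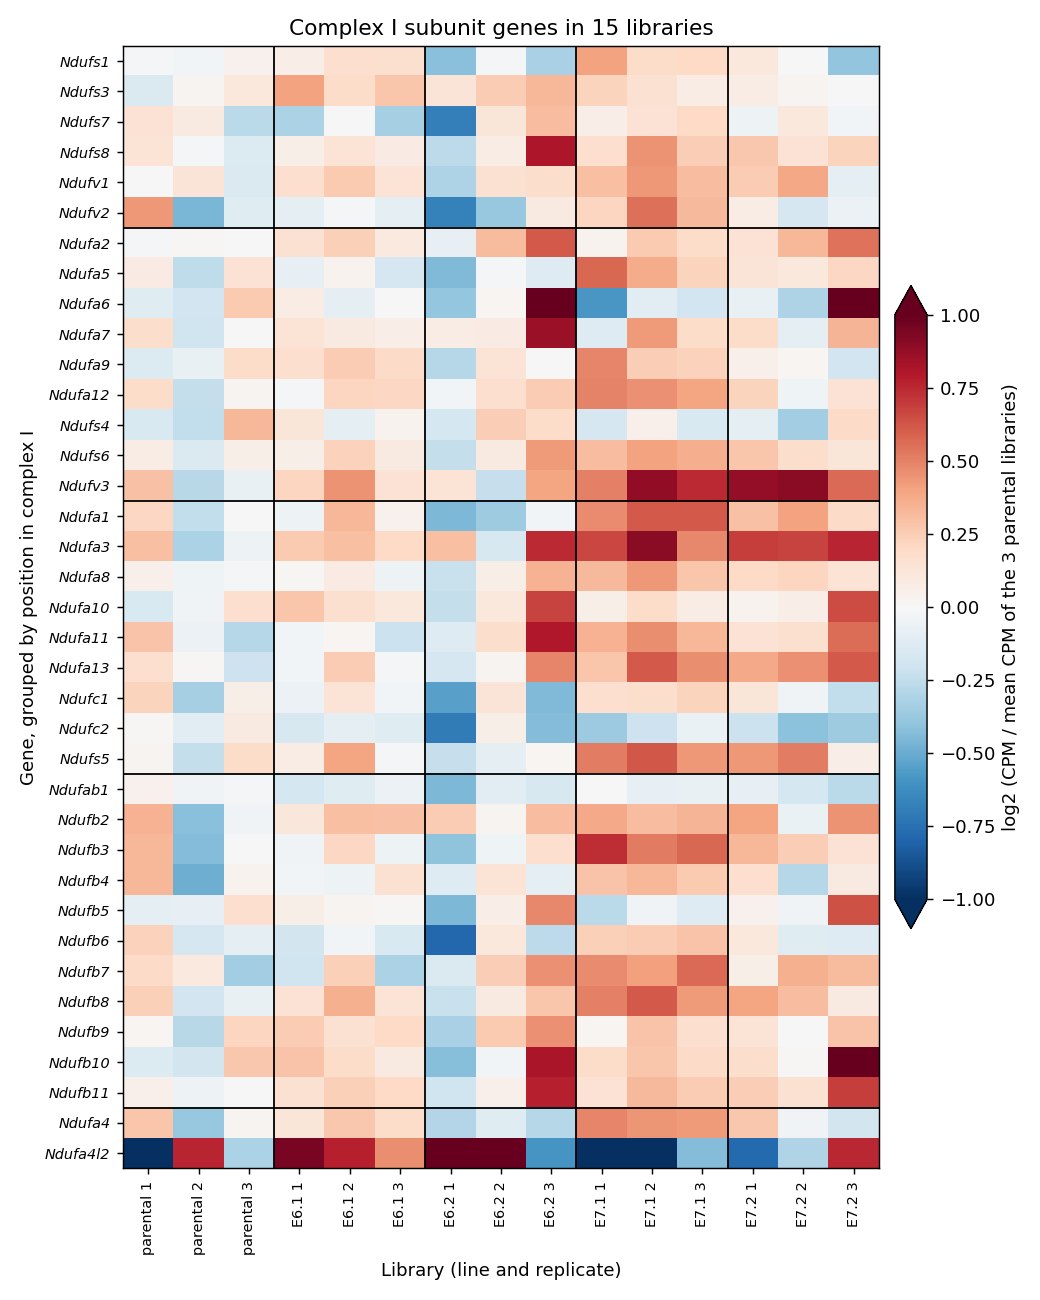
Each row is 1 of 37 complex I subunit genes and each column a library; the colour is the log2 ratio of its CPM to the mean of the 3 parental libraries, red above and blue below, and lines separate the lines of cells and the arms of the enzyme. The 3 columns of E7.1 are red for most genes, with library medians over all 38 of 0.28, 0.36 and 0.25, while replicate 1 of E6.2 is blue for most, with a median of -0.24.

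In E7.2, the other clone with an exon 7 mutation, the median was lower. The fitted fold change was above 0 for 30 of 38 members (78.9%, against 50.4% of all genes) and the median log2 fold change was 0.19, against 0.00 over all genes. Here, too, 0 members were called by edgeR (0.0863% of all genes were called higher and 0.209% lower), and 5 were higher at an unadjusted p under 0.05 (13.2%, against 5.98%), none lower (7.34%). These were *Ndufv3* at 0.79 (SE 0.188, adjusted p = 0.119), *Ndufa3* at 0.71 (SE 0.204, adjusted p = 0.207), *Ndufa13* at 0.49 (adjusted p = 0.282), *Ndufs5* at 0.35 (adjusted p = 0.363) and *Ndufa2* at 0.35 (adjusted p = 0.366). DESeq2's Wald test called 1 of them, *Ndufv3*, higher (0.778% of all genes), and edgeR called the same gene without replicate 3 of E6.2. All libraries of E7.2 lay above all parental libraries for 9 members (23.7%, against 10.8%) and below them for 2, *Ndufab1* and *Ndufc2* (5.26%, against 13.3%). The median over the members was 0.12 without replicate 3 of E7.2, the library that stood apart. The count at an unadjusted p under 0.05 was 3 without replicate 2 or 3 of the parental line (3.64% and 3.2% of all genes). It was also 3 without replicate 1 of E6.1 or replicate 3 of E7.1 (5.21% and 5.02%). The medians by arm were 0.04 for the core, 0.16 for the peripheral, 0.30 for the proximal and 0.25 for the distal accessory subunits.

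In the clones with an exon 6 mutation the medians were nearer to 0. In E6.1 the fitted change was above 0 for 29 members (76.3%, against 49.9%) with a median of 0.12, and in E6.2 for 24 (63.2%, against 56.7%) with a median of 0.09, against 0.00 and 0.06 over all genes. Neither edgeR nor DESeq2 called a member in either clone (all genes in edgeR: 0.0575% higher and 0.266% lower in E6.1, 0.165% and 1.01% in E6.2). At an unadjusted p under 0.05 the count was 1 member in each, higher (2.87% of all genes in E6.1 and 6.26% in E6.2), and in both it was *Ndufs3*. None was lower (3.84% and 6.79% of all genes). In E6.2, 7 members were higher by this measure without its replicate 1 (7.33% of all genes). Without its replicate 2, 5 were lower, with the share of all genes not computed. The libraries of E6.1 all lay above the parental ones in 6 members (15.8%, against 11.3%) and below them in 1 (11.2% of all genes), and those of E6.2 in 1 and 1 (6.13% and 8.61% of all genes). The log2 fold change of *Ndufs3* was 0.29 (SE 0.109, adjusted p = 0.556) in E6.1 and 0.24 (SE 0.109, adjusted p = 0.364) in E6.2, with edgeR. The median for E6.2 rested on its libraries at either end: it was -0.069 without replicate 3 and 0.20 without replicate 1.

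Since the 3 parental libraries serve all 4 comparisons, the clones' values are given side by side. A fold change above 0 in each of the 4 clones was found for 18 of 38 members (47.4%), against 16.1% of all genes, and a value above 0 in none of them for 2 members (5.26%), against 13.9%. Those 2 were *Ndufc2*, a proximal membrane-arm subunit, with log2 fold changes of -0.13 and -0.32 in the E6 clones and -0.21 and -0.33 in the E7 clones, and *Ndufab1*, the mitochondrial acyl carrier protein, with -0.12, -0.23, -0.05 and -0.17 in the same order. Leaving out replicate 2 of the parental line, in which the members' median was the lowest of the parental libraries at -0.15 on the log2 scale, moved the median fold change to 0.05 in E6.1 and 0.22 in E7.1. Correcting for length and GC content with an offset gave medians of 0.21 in E7.1, 0.09 in E7.2, 0.04 in E6.1 and 0.02 in E6.2. Among the genes with exon lengths of up to 1722 bases, which included 25 members, the median of all genes was 0.07 for E6.1, 0.16 for E6.2, 0.00 for E7.1 and 0.12 for E7.2, and that of the members was 0.10, 0.10, 0.29 and 0.16.

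**Figure D2:**
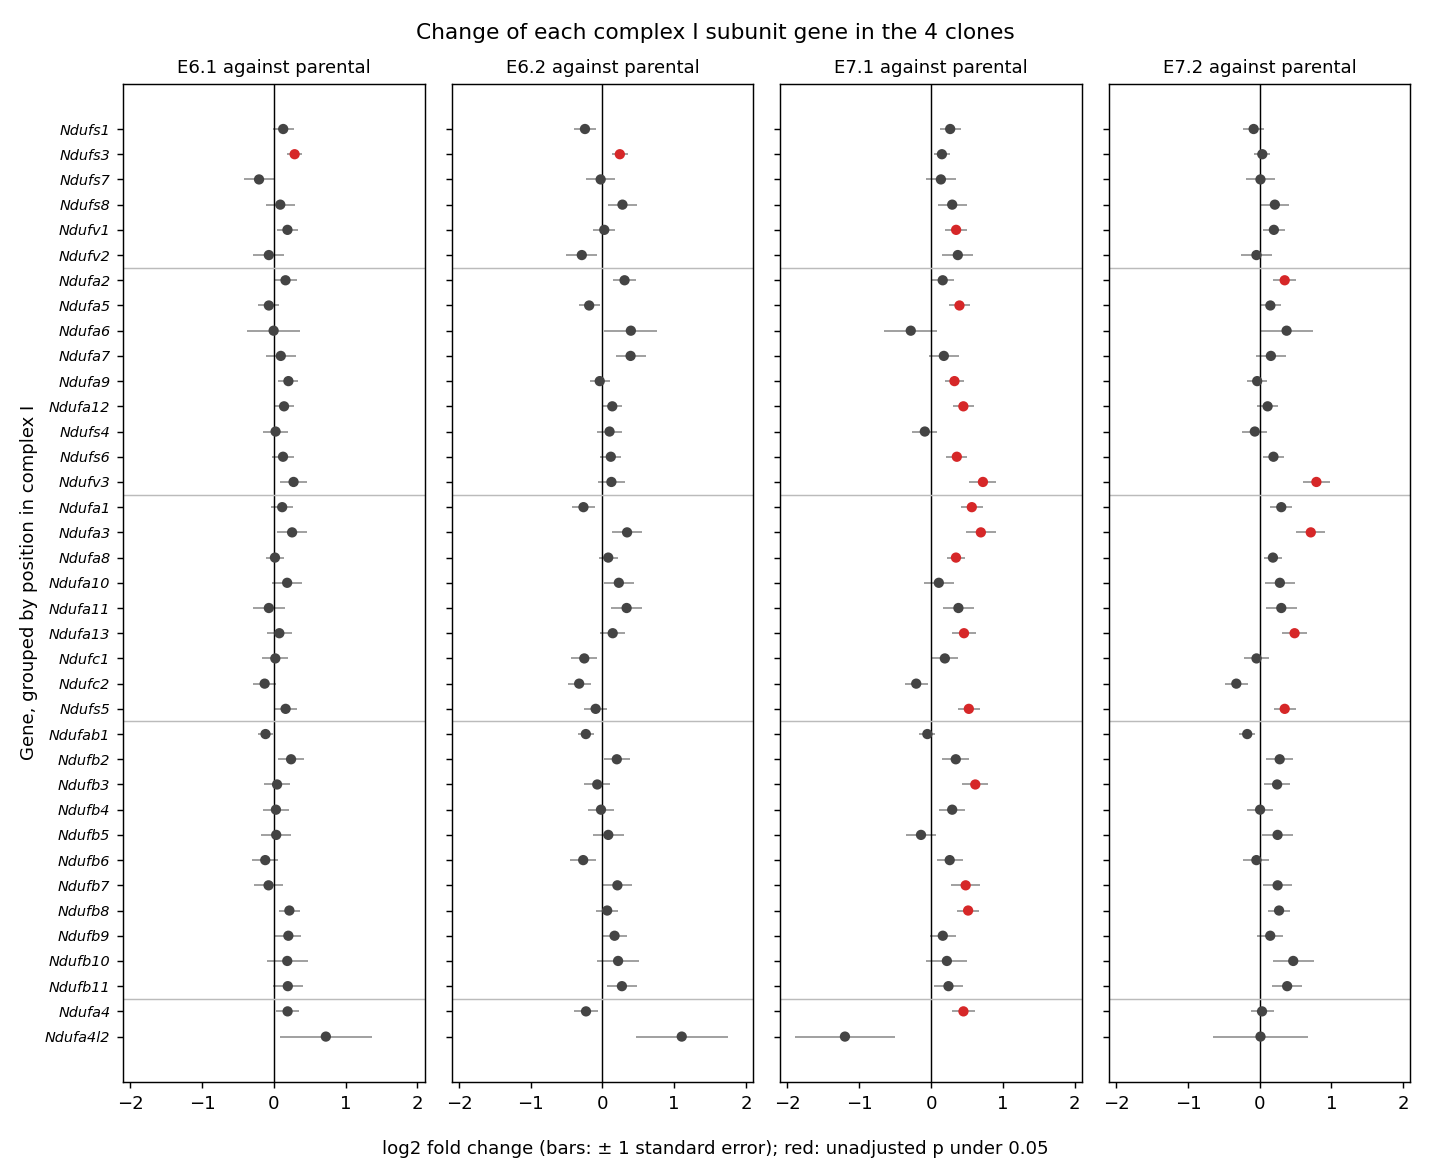
Each point is the log2 fold change of 1 of 37 complex I subunit genes in a clone against the parental line, with a bar of 1 standard error; red points have an unadjusted p under 0.05 and lines separate the core, peripheral, proximal and distal subunits and the last 2 genes. Red points number 15 for E7.1, 5 for E7.2 and 1 for each E6 clone, all to the right of 0.

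The members' median in each library, as log2 CPM minus the parental mean, separated E7.1 from the parental line. It was 0.08, -0.15 and 0.02 in the parental libraries, 0.07, 0.19 and 0.09 in E6.1, -0.24, 0.08 and 0.33 in E6.2, 0.28, 0.36 and 0.25 in E7.1 and 0.16, 0.05 and 0.21 in E7.2. The 3 medians of E7.1 were above those of all parental, E6.1 and E7.2 libraries, and that of replicate 3 of E6.2 fell among them. The medians varied within lines with an SD of 0.148. Over the 15 libraries, 22 members had their lowest CPM in replicate 1 of E6.2, the library rich in *Gm42418*, and 16 had their highest in E7.1. What part these library features have in the fold changes was not tested beyond the fits without them.

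**Figure D3:**
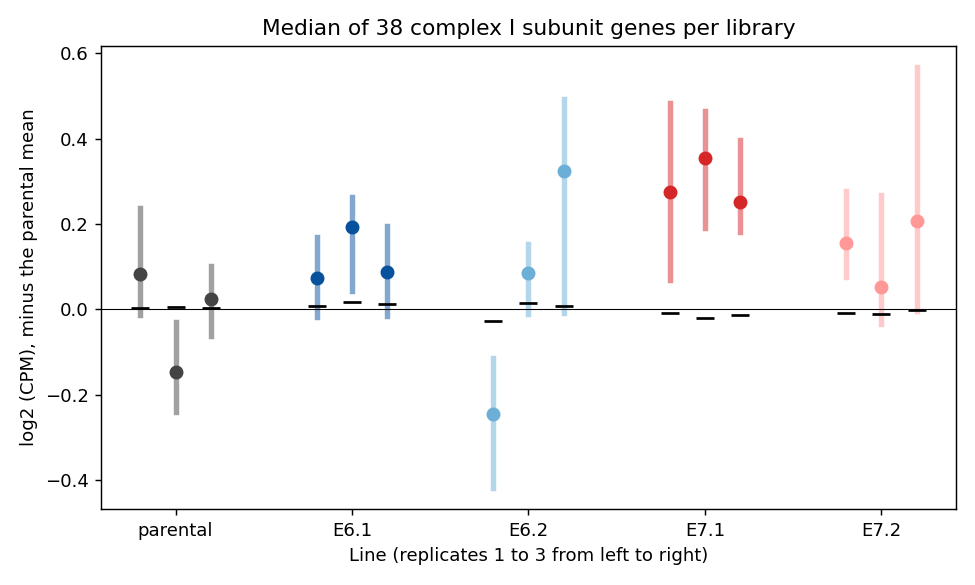
Points give the median log2 CPM of the 38 complex I subunit genes in each library minus the parental mean, bars the interquartile range of the genes and dashes the median of all tested genes, for the 5 lines. The 3 libraries of E7.1 sit at 0.25 to 0.36, above the 3 parental libraries at -0.15 to 0.08, while all-gene medians stay near 0.

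The core subunits carry the path of electrons. *Ndufv1* (chr19:4007497-4012806) holds the flavin and the NADH site. It stood at 70.3, 76.5 and 63.3 CPM in parental cells, at 78.9, 84.0 and 76.8 in E6.1, at 56.7, 77.8 and 79.3 in E6.2, at 86.2, 94.5 and 86.9 in E7.1 and at 83.5, 91.7 and 65.7 in E7.2. The libraries of E6.1 and E7.1 lay above all parental libraries, those of the other clones overlapped them, and the log2 fold change in E7.1 was 0.35 (SE 0.151, adjusted p = 0.213 in edgeR's test). *Ndufv2* (chr17:66078795-66101559), its partner with an iron-sulfur cluster of its own, stood at 184, 99.2 and 125 CPM in parental cells, at 127, 134 and 128 in E6.1, at 85.2, 105 and 145 in E6.2, at 158, 199.9 and 171 in E7.1 and at 143, 121 and 131 in E7.2. The parental libraries of *Ndufv2* spanned nearly the whole range, so each clone overlapped them.

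*Ndufs1* (chr1:63143596-63176833), the largest subunit, carries several of the iron-sulfur clusters. Its levels were 199, 197 and 207 CPM in parental cells, 210.1, 226 and 225 in E6.1, 150.1, 199 and 160.3 in E6.2, 266, 228 and 231 in E7.1 and 216, 200.2 and 153 in E7.2. Both E6.1 and E7.1 lay above the parental libraries without overlap, by a log2 fold change of 0.13 (95% interval -0.18 to 0.45) and 0.27 (-0.05 to 0.58). All libraries of E6.2 were below those of E6.1, at -0.37 (adjusted p = 0.298 in edgeR's test), and all of E7.2 below those of E7.1, at -0.35 (adjusted p = 0.339).

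*Ndufs3* (chr2:90894634-90904827), a core subunit without a cofactor, had its highest mean in E6.1. It was at 77.2, 87.1 and 91.5 CPM in parental cells, at 113, 97.1 and 103 in E6.1, at 93.5, 102 and 107 in E6.2, at 99.3, 94.8 and 89.9 in E7.1 and at 89.7, 86.9 and 85.6 in E7.2. The libraries of both E6 clones lay above the parental ones, those of both E7 clones overlapped them, and E7 against E6 clones was -0.17 (SE 0.0769, adjusted p = 0.146 in edgeR's test). *Ndufs7* (chr10:80249121-80256794), which holds the last cluster before ubiquinone, was at 31.3, 30.1 and 23.5 CPM in parental cells, at 22.7, 28.4 and 22.5 in E6.1, at 17.6, 30.8 and 35.0 in E6.2, at 29.6, 31.3 and 32.5 in E7.1 and at 27.3, 30.5 and 27.7 in E7.2. No clone separated from the parental line for this gene, the fitted log2 fold changes running from -0.21 to 0.14. *Ndufs8* (chr19:3908870-3912717), another iron-sulfur subunit, was at 41.2, 37.1 and 34.2 CPM in parental cells, at 39.0, 41.1 and 39.6 in E6.1, at 31.3, 39.5 and 65.6 in E6.2, at 42.1, 51.3 and 44.4 in E7.1 and at 45.2, 41.4 and 43.6 in E7.2. Both E7 clones lay above the parental libraries, by 0.29 and 0.21 on the log2 scale, and replicate 3 of E6.2 held the highest value.

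The comparison of the E7 with the E6 clones set 6 libraries against 6, and the parental libraries entered it through the normalisation and the estimate of the spread that all 15 libraries share. Here 5 members passed the test and were higher in the E7 clones (13.2% of the 38, against 6.21% of all genes), and 0 were lower (5.85% of all genes). The 5 were all accessory subunits, *Ndufa5* and *Ndufv3* of the peripheral arm, *Ndufa1* and *Ndufs5* of the proximal and *Ndufb3* of the distal membrane arm. The median log2 difference over the members was 0.15, against -0.03 over all genes, and 29 of 38 members were above 0 (76.3%, against 46.3%). At an unadjusted p under 0.05, 12 members were higher (31.6%, against 13.9%) and 2, *Ndufa4l2* and *Ndufs3*, were lower (5.26%, against 16.4%). All E7 libraries lay above all E6 libraries in 2 members, *Ndufa5* and *Ndufv3* (5.26%, against 1.81%), and below them in 0 (1.75% of all genes).

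*Ndufv3* (chr17:31520115-31531326) stood at 29.6, 19.97 and 22.9 CPM in parental cells, at 28.1, 32.9 and 26.7 in E6.1, at 26.7, 20.6 and 31.8 in E6.2, at 34.4, 44.7 and 40.6 in E7.1 and at 44.4, 45.3 and 35.7 in E7.2. The E7 libraries were all above the E6 and the parental libraries, and E7 against E6 was 0.56 on the log2 scale (SE 0.133, adjusted p = 0.0201 in edgeR's quasi-likelihood test). *Ndufa1* (chrX:37187588-37191163) was at 36.8, 26.9 and 32.0 CPM in parental cells, at 30.8, 40.3 and 32.8 in E6.1, at 23.3, 24.9 and 31.4 in E6.2, at 44.2, 49.0 and 48.7 in E7.1 and at 39.2, 42.2 and 36.5 in E7.2. The difference was 0.51 (SE 0.109, adjusted p = 0.0135), the groups met only through replicate 2 of E6.1, and E7.1 was above every other library.

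The 150 bases before the starts of these 2 genes are printed because *Ndufa1* and *Ndufv3* had the largest differences between the exon groups among the 5 members called. Capitals mark a GC box. The *Ndufa1* window held none of the motifs searched, and that of *Ndufv3* the GC box and, just after the start, the CCAAT letters on the opposite strand.
*Ndufa1*, chrX:37191239-37191388, minus strand: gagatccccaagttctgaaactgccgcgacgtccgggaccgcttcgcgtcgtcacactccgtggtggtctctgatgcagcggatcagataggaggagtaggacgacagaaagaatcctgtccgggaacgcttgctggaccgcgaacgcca
*Ndufv3*, chr17:31519965-31520114, plus strand: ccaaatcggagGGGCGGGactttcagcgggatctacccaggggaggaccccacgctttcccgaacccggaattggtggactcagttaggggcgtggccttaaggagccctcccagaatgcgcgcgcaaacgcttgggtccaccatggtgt

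*Ndufa5* (chr6:24518666-24528013), an accessory subunit close to the ubiquinone-binding part of the peripheral arm, was at 34.2, 27.2 and 35.8 CPM in parental cells, at 30.5, 33.3 and 28.8 in E6.1, at 23.9, 31.9 and 29.7 in E6.2, at 48.3, 41.8 and 37.7 in E7.1 and at 35.3, 34.9 and 37.5 in E7.2. The E7 libraries lay above the E6 libraries without overlap, by 0.40 (SE 0.104, adjusted p = 0.0274 in edgeR's test), while those of E7.2 overlapped the parental libraries, replicate 3 lying above all of them. *Ndufs5* (chr4:123712710-123718202), which faces the intermembrane space, was at 39.3, 32.8 and 43.9 CPM in parental cells, at 40.6, 50.9 and 38.5 in E6.1, at 33.0, 36.3 and 39.3 in E6.2, at 55.0, 59.6 and 52.4 in E7.1 and at 52.2, 55.1 and 40.4 in E7.2. Its difference was 0.40 (SE 0.110, adjusted p = 0.0333), and the exon groups overlapped through replicate 3 of E7.2. *Ndufb3* (chr1:58586384-58595964) was at 53.2, 31.3 and 42.2 CPM in parental cells, at 41.1, 48.9 and 40.8 in E6.1, at 32.0, 41.0 and 47.5 in E6.2, at 70.6, 60.7 and 62.9 in E7.1 and at 53.1, 49.96 and 46.8 in E7.2. The difference was 0.44 (SE 0.129, adjusted p = 0.0418), E7.1 was above all other libraries and E7.2 overlapped the parental and the E6 libraries.

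**Figure D4:**
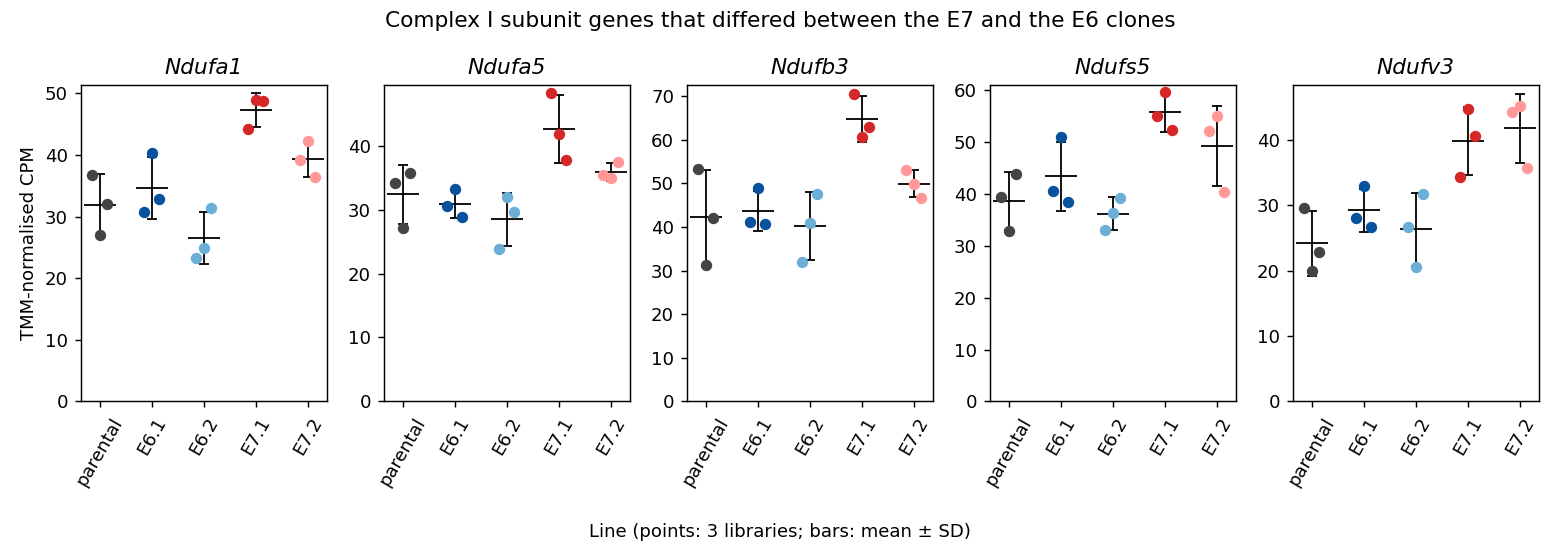
TMM-normalised CPM of the 5 complex I subunit genes that passed the test between the E7 and the E6 clones; points are the 3 libraries of each line and bars the mean ± SD, on axes that start at 0. *Ndufa5* and *Ndufv3* show no overlap between the 6 E7 and the 6 E6 libraries, and E7.1 has the highest mean for *Ndufa1*, *Ndufa5*, *Ndufb3* and *Ndufs5*.

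The number of members called between the exon groups depended on the libraries. Only *Ndufa1* was called without replicate 1 or 3 of E6.1 (1.95% and 2.02% of all genes called higher) and without replicate 1 or 2 of E7.2 (3.16% and 2.63%). Without replicate 1 of E7.1 the count was 2 (3.39%), and without replicate 1 of E6.2, or replicate 2 or 3 of E7.1, it was 3 (4.85%, 4.29% and 3.73%). Without replicate 3 of E6.2 it rose to 12 (13.4%), and without replicate 3 of both E6.2 and E7.2 to 13 (18%). In each of these fits the share of all genes called moved in the same direction as the members' count, from 6.21%, while without replicate 3 of E7.2 it was 10.5% with 5 members called. The members' median difference was 0.23 without replicate 3 of E6.2. At an unadjusted p under 0.05, 7 members were higher without replicate 1 or 3 of E6.1 or replicate 2 of E7.1. The shares of all genes higher in these fits were 11%, 11.1% and 13.1%. *Ndufa1* was called in all 24 alternative fits, *Ndufv3* in 20, *Ndufa5* in 18, *Ndufs5* in 14 and *Ndufb3* in 13.

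*Ndufa4l2* missed the threshold in the other direction, at -1.51 (SE 0.473, adjusted p = 0.0511 in edgeR's test). Its libraries held 0.181, 0.614 and 0.291 CPM in parental cells, 0.698, 0.621 and 0.5004 in E6.1, 1.14, 0.998 and 0.241 in E6.2, 0.0536, 0.153 and 0.268 in E7.1 and 0.211, 0.293 and 0.609 in E7.2. It was called lower in the E7 clones in 6 of the 24 alternative fits, among them those without replicate 3 of E6.2, of E7.2 or of both, and DESeq2's Wald test. At these levels 1 library of E7.1 was below the floor of 3 counts. Its paralog *Ndufa4* (chr6:11900373-11907446) was at 219, 139 and 183 CPM in parental cells, at 196, 217 and 205 in E6.1, at 147, 166 and 148 in E6.2, at 253, 244 and 242 in E7.1 and at 218, 176 and 159 in E7.2. Here E7.1 was above all other lines.

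Clones with the same targeted exon were compared with each other as well. For E7.2 against E7.1, 0 members were called by edgeR or DESeq2 (all genes in edgeR: 0.367% higher and 0.223% lower), 4 were lower at an unadjusted p under 0.05 (10.5%, against 5.8%) and none higher (7.47% of all genes), the fitted difference was above 0 for 12 (31.6%, against 49.6%), and the median log2 difference was -0.12, against 0.00 over all genes. In 17 members all libraries of E7.2 were below all of E7.1 (44.7%, against 12.7%), and in 1, *Ndufb5*, above (2.63%, against 12.4%). The 4 were *Ndufa4* (-0.42), *Ndufa9* (-0.36), *Ndufa12* (-0.34) and *Ndufs1* (-0.35), with adjusted p values of 0.307 to 0.339. Without replicate 3 of E7.2, 0 members were lower at an unadjusted p under 0.05, and without replicate 1 of E7.1 or replicate 2 of E7.2 there were 1 and 2. For E6.2 against E6.1, 0 members were called by either tool (0.482% of all genes higher and 0.762% lower in edgeR), and none was higher at an unadjusted p under 0.05 (7.59% of all genes). Those lower numbered 3 (7.89%, against 5.34%), *Ndufa4* (-0.42), *Ndufa1* (-0.38) and *Ndufs1* (-0.37), and the median was -0.04, against 0.04 over all genes. The number lower was 0 without replicate 2 of E6.1, 1 without replicate 1 of E6.2 and 6 without replicate 2 of E6.2. Shares of all genes lower at an unadjusted p under 0.05 were not computed for these fits, nor for those of E7.2 against E7.1. A change in the members and a change in all genes cannot be told apart there. The median was 0.036 without replicate 1 of E6.2 and -0.17 without its replicate 3. The libraries of E6.2 all lay below those of E6.1 in 3 members (7.89%, against 10.2%).

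Within lines, the subunit genes varied with a median SD of 0.227 on the log2 scale, against 0.306 over all genes. Variation was small in E6.1 (0.0884, against 0.142 over all genes) and E7.1 (0.0936, against 0.199) and large in E6.2 (0.333, against 0.392). The order of these lines was thus the same over all genes. The spread in E6.2 came from both ends, since 10 of 38 members were at least 1.5-fold below the mean of the other 2 libraries in replicate 1 (13.3% of all genes were) and 11 at least 1.5-fold above it in replicate 3 (21.7% of all genes). In replicate 3 of E7.2, 5 members were at least 1.5-fold above the other 2 libraries of that clone (13.2%, against 17.9% of all genes). Members high by this measure in both of these libraries numbered 4 of 38 (10.5%, against 9.90% of all genes), and 0 were low in both (8.54% of all genes).

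The 4, a share close to that of all genes and so not particular to the members, were *Ndufa6*, *Ndufb10*, *Ndufa10* and *Ndufb5*. *Ndufa6* (chr15:82350139-82354291) was at 92.5, 87.9 and 121 CPM in parental cells, at 106, 94.1 and 101 in E6.1, at 76.9, 102 and 217 in E6.2, at 66.9, 92.5 and 87.9 in E7.1 and at 95.4, 81.0 and 214 in E7.2. Replicate 3 of each of these clones was 2.46-fold in E6.2 and 2.43-fold in E7.2 above the other libraries of its clone and above all 13 remaining libraries, which did not exceed 121 CPM. *Ndufb10*, a distal subunit on the intermembrane side, was 2.06-fold and 1.88-fold above, *Ndufa10*, a proximal subunit on the matrix side, 1.67-fold and 1.52-fold, and *Ndufb5*, also of the distal arm, 1.60-fold and 1.55-fold. The core subunit *Ndufs8* was 1.86-fold above in E6.2 and 1.01-fold in E7.2. Mean values of *Ndufa6* in these clones, 132 ± 75.1 CPM in E6.2 and 130.1 ± 72.8 CPM in E7.2 (SD, n = 3), therefore rested on 1 library each.

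**Figure D5:**
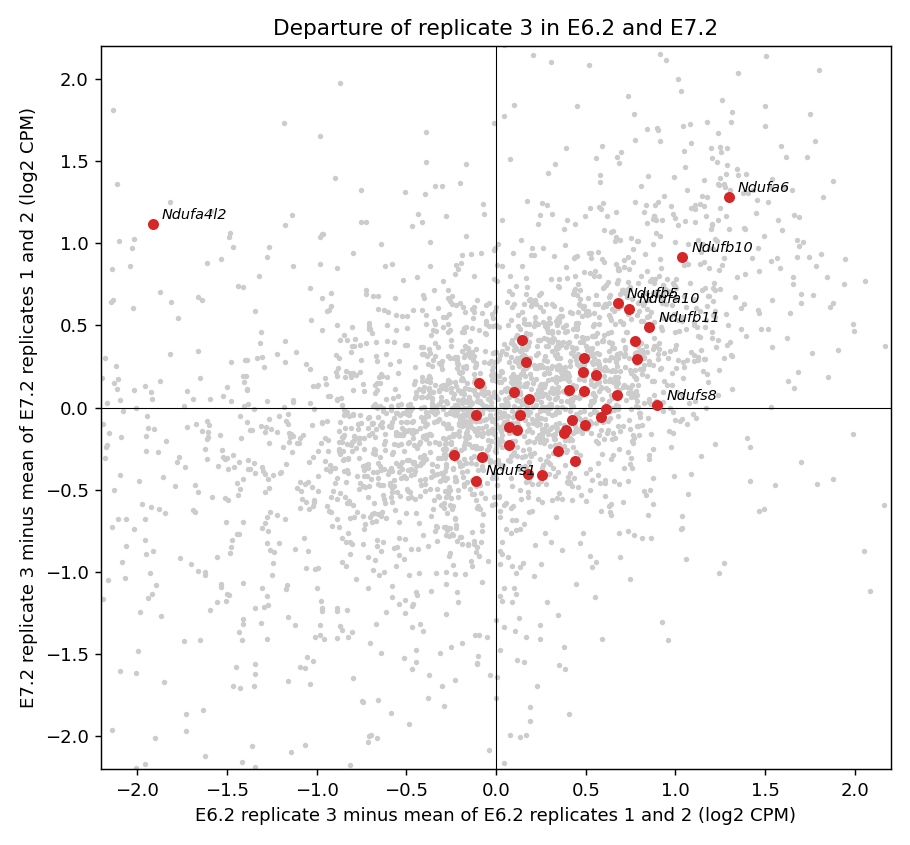
Departure of replicate 3 from the mean of replicates 1 and 2 in E6.2 (horizontal axis) and in E7.2 (vertical axis), in log2 CPM; red points are the 38 complex I subunit genes, grey points 3000 of the tested genes, of which those beyond 2.2 on either axis are not drawn. Among the red points, *Ndufa6* (1.30 and 1.28) and *Ndufb10* (1.04 and 0.91) lie farthest to the upper right. The share at least 1.5-fold high in both libraries was 10.5% of the members and 9.90% of all tested genes.

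The other genes of the pathway were counted in the same tests. Calls over all genes were most frequent in E7 against E6 clones, at 6.21% higher and 5.85% lower. For the 17 assembly factors tested, which build the enzyme and are not part of it, 0 were called in any comparison, and the median log2 fold change was 0.01 and 0.00 in the E6 clones and 0.15 and -0.04 in the E7 clones. The smallest unadjusted p values belonged to *Ndufaf5*, which was at -0.40 in E7 against E6 clones (SE 0.160, adjusted p = 0.106 in edgeR's test), and to *Acad9*, at -0.36 in E6.2 against E6.1 (SE 0.146, adjusted p = 0.316). The 7 mitochondrially encoded complex I subunits had 0 calls and medians of -0.05, 0.19, 0.29 and 0.61 in the same order. Here the smallest unadjusted p values belonged to *mt-Nd4* in E7.2 (1.15, SE 0.617, adjusted p = 0.429 in edgeR's test) and *mt-Nd6* in E7.2 against E7.1 (0.74, SE 0.512, adjusted p = 0.536). In replicate 3 of E7.2, the library that stood apart, the mitochondrial transcript *mt-Co1* had the most counts of any gene (3.73%). Replicates 1 and 2 of E7.2 were led by *Eef1a1*. What part replicate 3 has in these values of E7.2 was not tested.

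Subunits of the other respiratory complexes had medians in E7.1 near that of complex I or above it, at 0.33 for the 4 of complex II, 0.43 for the 9 of complex III, 0.42 for the 11 of complex IV (which include *Ndufa4*) and 0.41 for the 15 of complex V. In E7 against E6 clones, the number called higher was 1 of 4 in complex II (*Sdha*, the flavoprotein of succinate dehydrogenase, at 0.38, adjusted p = 0.0224 in edgeR's test) and 3 of 9 in complex III (*Uqcr11* at 0.84, adjusted p = 0.0226, *Uqcr10* at 0.52, adjusted p = 0.0376, and *Uqcrb* at 0.46, adjusted p = 0.0436). It was 2 of 15 in complex V (*Atp5k* at 0.70, adjusted p = 0.0256, and *Atp5g3* at 0.52, adjusted p = 0.0296), 0 of 11 in complex IV, and none of these complexes had a gene called lower in any comparison. Of all genes, 6.21% were called higher in E7 against E6 clones and 5.85% lower. In complex IV the smallest unadjusted p values were those of *Cox7b* (0.56, adjusted p = 0.109) and *Cox6b1* (0.86, adjusted p = 0.110) in E7.1 in edgeR's test. These complexes were not tested against complex I.

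Among 10 tested regulators of respiratory chain genes, 1 was called. *Pprc1*, a coactivator of the PGC-1 family that works with NRF-1, was at 84.2, 77.0 and 67.2 CPM in parental cells, at 83.8, 91.3 and 76.4 in E6.1, at 48.4, 37.3 and 62.6 in E6.2, at 128, 107 and 113 in E7.1 and at 93.9, 108 and 108 in E7.2. All E7 libraries were above all E6 and parental libraries, and those of E6.2 were below them. The log2 difference was 0.77 in E7 against E6 clones (SE 0.119, adjusted p = 0.00308 in edgeR's test) and -0.76 in E6.2 against E6.1 (SE 0.168, adjusted p = 0.0388). Of all genes, 6.21% were called higher in E7 against E6 clones and 0.762% lower in E6.2 against E6.1. Set against parental cells, E7.1 was at 0.60 (adjusted p = 0.0758) and E7.2 at 0.44 (adjusted p = 0.301).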

How the data were processed

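The labels assigned 15 mRNA libraries to 5 lines. Per the file headers, the authors aligned reads to mm10 with HISAT (version not given in the sources used here) and deposited raw counts of read pairs per gene from featureCounts 1.5.0, without strand, multi-mapping pairs or pairs over several genes. Members, gene lists and motifs were chosen with earlier results of these data known. Counts were filtered with filterByExpr, normalised by TMM and fitted over all 15 libraries, with the line as factor, by edgeR 4.0.16's quasi-likelihood test in R 4.3.3. Benjamini-Hochberg adjustment covered 13904 genes per comparison. Levels are TMM-normalised CPM, or RPKM on the lengths in the tables, given as mean ± SD. The script was tested on simulated data. Values were given in full for the core subunits and called members, and for further members singled out after their values were seen. List genes are those called or, with none, the 2 smallest p values. Alternatives were DESeq2 1.42.0 (size factors, Wald test), no filter, edgeR's newer quasi-likelihood method, a fit of the compared lines only, a loess offset (span 0.5) for length and GC, a replicate block and leaving out libraries. No 2 libraries of the same line were copies, and pairs from different lines were not checked for this. Individual values of 1 member, which enters all counts and medians, are not reported here.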

Additional observations from a re-analysis of the deposited data

Results flagged for a closer look

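Between the 2 E7 and the 2 E6 clones, 5 complex I subunit genes differed, by the test of the E7 against the E6 clones itself. The log2 difference was 0.51 for *Ndufa1*, 0.56 for *Ndufv3*, 0.44 for *Ndufb3*, and 0.40 for both *Ndufa5* and *Ndufs5*. Each exon is represented by 2 clones, so a difference between exons and a difference between these clones cannot be told apart. Against parental cells, 4 of the 5 genes had fitted log2 fold changes below 0 in E6.2, *Ndufa1* (-0.26), *Ndufa5* (-0.18), *Ndufs5* (-0.095) and *Ndufb3* (-0.072), *Ndufa5* was also below 0 in E6.1 (-0.069), and all 5 were above 0 in both E7 clones. None of these values against parental cells passed edgeR's test.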

How the results depend on the processing

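The number of members called higher in E7.1 was 0 in the reported fit, 7 with DESeq2's Wald test, 11 without the replicates 3 of E6.2 and E7.2, and 0 to 7 when single libraries were left out. For E7.2 it was 0, 1, 1 and 0 to 1 in the same order. For E7 against E6 clones it was 5 as reported, 3 with no filter on low counts, 13 without both replicates 3 and 1 to 12 with single libraries left out. The number called lower there was 0 as reported, and 1 (*Ndufa4l2*) with DESeq2's Wald test, with edgeR's newer quasi-likelihood method, with the length and GC offset and without both replicates 3, and 0 to 1 with single libraries left out. The median log2 fold change of the members in E6.2 was 0.09, and -0.069 to 0.20 with single libraries left out, -0.069 being the value without replicate 3 of E6.2. The 5 genes called between the exon groups kept their direction in all 24 alternative fits, and the directions of the other members were not compared. The members' median thus changed sign in E6.2 against parental cells. In E6.2 against E6.1 it went from -0.037 to 0.036 without replicate 1 of E6.2. Libraries with the same replicate number in the parental line and a clone had deviations that correlated at -0.124 to 0.213. Clones were not compared with each other in this way, so whether a replicate number marks a shared batch was not tested. With the replicate block, 4 members were called higher in E7 against E6 clones (*Ndufb3* was not), and 6 with the block and the length and GC offset together. All-gene calls moved too, from 864 higher in E7 against E6 clones to 1386 with DESeq2's Wald test and 2509 without both replicates 3, and from 55 to 610 and 1176 in E7.1. Among the members only *Ndufa4l2*, at 2 to 33 counts, was near the floor of 3 counts.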
